A study of Mus musculus with 14 samples.

Results

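The genes described here are the enzymes and regulators that build cholesterol and fatty acids, followed in RNA of sorted mouse salivary gland cells with and without radiation. They are the rows of a deposited count table whose gene name stands on a fixed list of 32 symbols, out of 54532 genes in the table. All 32 were found, and all 32 were among the 15915 genes with enough counts to be tested. The list holds 18 enzymes of sterol synthesis, 2 enzymes that supply acetyl-CoA to both routes, 7 enzymes that make, lengthen or desaturate fatty acids, and 5 genes of sterol sensing and transport.

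Sterol synthesis joins acetyl-CoA units into mevalonate, turns mevalonate into squalene, and closes and trims squalene into cholesterol. Fatty acid synthesis starts from the same acetyl-CoA, and its products are lengthened and desaturated for membranes and stored fat. Both routes are controlled by the SREBP transcription factors, which the SCAP and INSIG proteins hold in the endoplasmic reticulum when sterols are plentiful; SREBP2, encoded by Srebf2, is best known for sterol genes and SREBP1, encoded by Srebf1, for fatty acid genes.

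The study sorted live EpCAM+ cells from the submandibular gland, a salivary gland, of adult mice and asked how cells marked by Tert, the gene of telomerase reverse transcriptase, differ from unmarked cells with and without radiation. The 14 libraries formed 4 groups: Tert+ RT (n = 4), Tert- RT (n = 4), Tert+ no RT (n = 3) and Tert- no RT (n = 3), where RT is 15 Gy. Mice of all 4 groups carried TertCreERT2/+ and Rosa26LSL-tdTomato/+, so that Tert+ means tdTomato+ and Tert- means tdTomato-. CreERT2 acts only with a tamoxifen-like ligand, so tdTomato marks cells in which the Tert locus was active when the ligand was present, and their descendants, rather than present Tert expression. The time between RT and sorting is not given in the labels, nor is a tamoxifen schedule. The labels do not say that replicates are separate animals, so each p-value measures only the spread between these libraries. Nor do they say whether a Tert+ and a Tert- library came from the same animal, and the tests treated all 14 as independent. In the description field, Tert+ and Tert- libraries take alternating numbers. If neighbouring numbers share an animal, the averaged comparison rests on fewer animals than libraries.

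Groups follow the sample titles; in all 14 libraries the label field for cell type states the reverse of the title. Which population is the higher one therefore depends on trusting the titles, while RT against no RT averaged over both populations does not. Total counts ran from 5520412 to 11642156 in RT libraries and from 9220126 to 15943597 in no RT libraries. The RT libraries also carry the later numbers in the description field, so RT and the order of the libraries cannot be told apart. The RNA held markers of gland epithelium and, although the gate was EpCAM+, of B cells. Over the 14 libraries, the median of Epcam was 43.6 CPM (counts scaled to a common library total with TMM factors), that of the tubule gene Klk1 1984 CPM and that of the acinar genes Dcpp1 and Smgc 1434 and 1327 CPM, beside 2794 CPM for the B cell receptor gene Cd79a and 1686 CPM for Ms4a1. Of 6 adipocyte markers, Plin1, Cidec and Lep were at 0 in all 14 libraries, Cfd in 12 and Adipoq in 10, while Fabp4, which other cells also express, was at 0 in 2 and had a median of 1.14 CPM. In such bulk samples, fewer cells of a type and less RNA per cell cannot be told apart.

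Promoter sequences from RefSeq (GRCm38.p6) matched 25 of the 32 genes. The 5 below are a selection. Of these, 4 belong to sterol enzymes that were lower after RT in the tests that follow (Hmgcs1, Idi1, Cyp51 and Msmo1). The last belongs to Acly, an enzyme upstream of both routes. Nsdhl, Ebp and Dhcr7 were also lower and had a promoter, but are not shown. The printed stretches are 150 bases long and end 20 bases before the start site, so nearer matches are cut off. They lie at chr13:119690181-119690330 (plus strand), chr13:8885436-8885585 (plus), chr5:4104718-4104867 (minus), chr8:64733599-64733748 (minus) and chr11:100528021-100528170 (minus), in that order, and read 5′ to 3′ on the strand of the gene. Capitals mark matches to the sterol regulatory element letters TCACNCCAC or to CCAAT, the box bound by NF-Y, on either strand, so that ATTGG is a CCAAT on the other strand.
Hmgcs1: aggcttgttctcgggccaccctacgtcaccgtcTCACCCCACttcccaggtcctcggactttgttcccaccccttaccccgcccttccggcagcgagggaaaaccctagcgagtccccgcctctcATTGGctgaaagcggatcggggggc
Idi1: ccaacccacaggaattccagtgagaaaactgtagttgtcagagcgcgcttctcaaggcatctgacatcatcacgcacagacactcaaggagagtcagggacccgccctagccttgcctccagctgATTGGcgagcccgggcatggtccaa
Cyp51: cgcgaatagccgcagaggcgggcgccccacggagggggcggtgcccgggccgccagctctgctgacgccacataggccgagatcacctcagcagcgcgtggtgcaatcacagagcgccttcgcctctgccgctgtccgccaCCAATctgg
Msmo1: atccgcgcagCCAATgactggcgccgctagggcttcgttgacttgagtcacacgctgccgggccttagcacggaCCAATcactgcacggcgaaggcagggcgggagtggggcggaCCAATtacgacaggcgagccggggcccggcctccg
Acly: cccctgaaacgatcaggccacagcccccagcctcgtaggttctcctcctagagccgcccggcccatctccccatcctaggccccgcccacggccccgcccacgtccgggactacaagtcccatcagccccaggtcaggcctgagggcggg
In the 250 bases before the start site, on both strands, CCAAT was found for 14 of the 15 sterol enzymes with a promoter in the table (93.3%), against 37.5% of 27025 genes and 40% of 10619 tested genes. GGGCGG, the letters of the Sp1 box, was also found for 14 of 15, against 35.4% of all genes and 61.3% of tested genes. TCACNCCAC was found for 1 sterol enzyme, Hmgcs1, against 1.22% of all genes. Its shorter form CACNCCAC, which every TCACNCCAC match also holds, was found for Acat2, Hmgcs1 and, outside the sterol enzymes, Insig1, against 6.05% of all genes. Of the 4 fatty acid enzymes with a promoter in the table, 1 held CCAAT (Fasn) and 1 held GGGCGG (Fads2). Of 4 genes of sterol sensing and transport, 3 held CCAAT and 4 GGGCGG. Of Acly and Acss2, 1 held CCAAT and 2 GGGCGG. The sterol enzymes with CCAAT include some that did not pass in the tests that follow, such as Pmvk and Sc5d. Lists this short do not set the groups apart. These are exact letters in a window, so sites that differ in a letter were not counted. No binding was measured.

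After RT, many enzymes of the sterol route were lower. Averaged over both populations, 9 of the 18 sterol enzymes fell past the threshold (edgeR quasi-likelihood test, Benjamini-Hochberg adjusted p under 0.05 over all genes) and none rose. Among all genes tested, 7.00% fell and 6.36% rose in this comparison. Of the 18 sterol enzymes, 17 had a fold change below 0, and their median log2 fold change, RT over no RT, was -0.76, against -0.01 over all genes tested. Of the 7 fatty acid enzymes, 0 fell and 1, Scd1, rose, with a median of 0.04; in so short a list 0 falling is near the background share, and the routes were not tested against each other. In all, 10 of the 32 genes fell, 1 rose and 21 did not pass. Without Tert- no RT replicate 2, 7 of the 32 passed in place of 11.

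**Figure D1:**
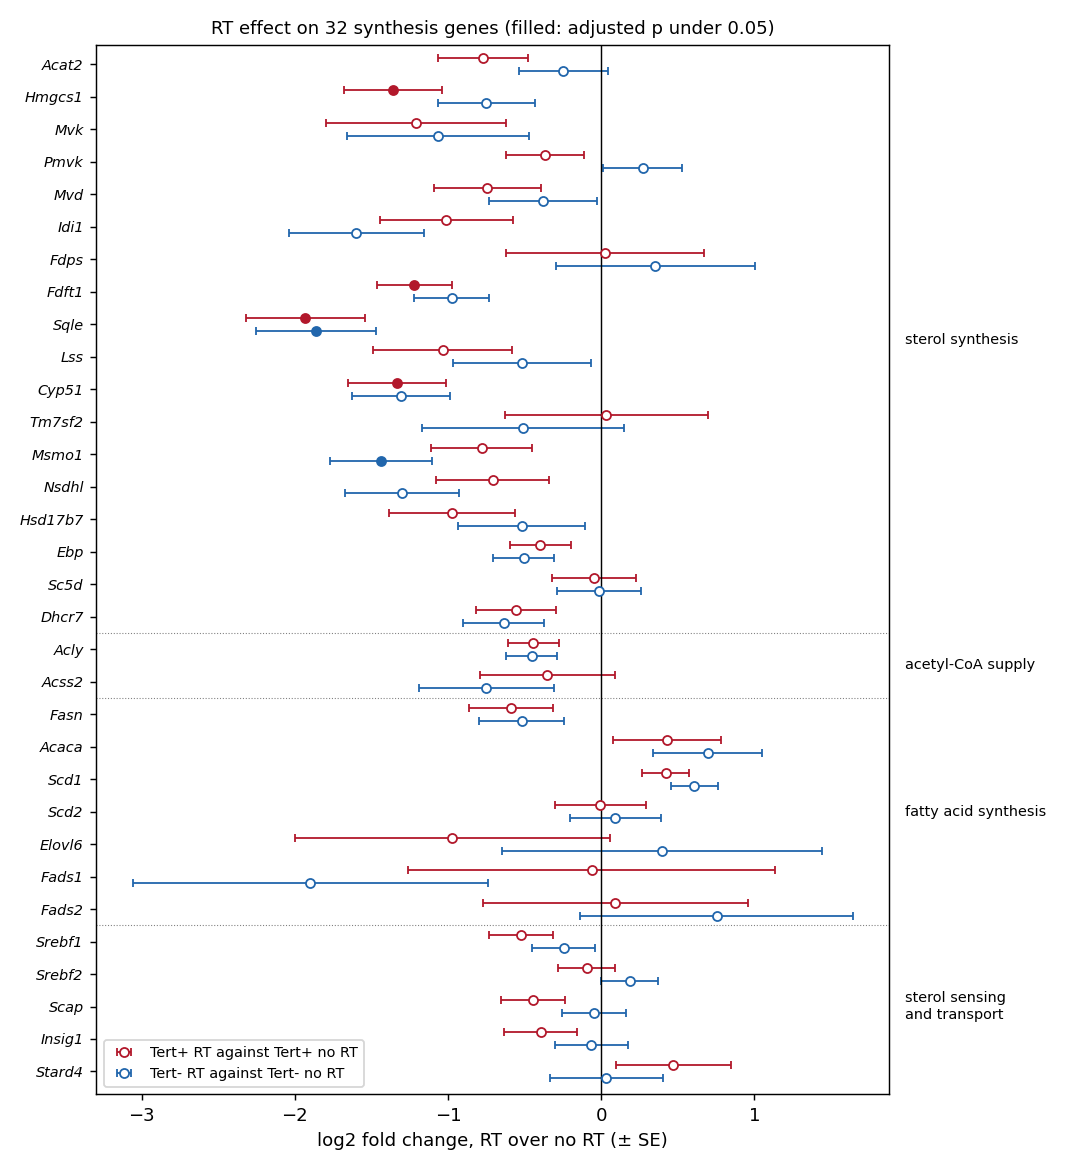
Log2 fold change of each of the 32 genes, RT over no RT, with its standard error (SE), in Tert+ cells (red) and Tert- cells (blue), grouped by route; filled points have an edgeR adjusted p under 0.05. Most sterol enzymes lie left of 0 in both populations, with Sqle farthest left of the filled points (-1.93 in Tert+ and -1.86 in Tert-), and Scd1 lies right of 0 in both.

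The sterol route begins with Acat2, a cytosolic thiolase that joins acetyl-CoA units, and Hmgcs1, the HMG-CoA synthase that adds another. Hmgcs1 was at 22.0, 19.9, 11.1 and 40.8 CPM in Tert+ RT libraries, against 55.1, 70.6 and 55.6 CPM in Tert+ no RT libraries. Tert- RT libraries had 29.6, 30.7, 30.9 and 28.8 CPM, against 37.5, 62.0 and 52.2 CPM in Tert- no RT libraries. Within each population every RT library lay below every no RT library, and across populations Tert+ RT replicate 4 overlapped Tert- no RT replicate 1. Such separation within 1 population is common with so few libraries. In Tert+ cells 1313 of the 15915 genes tested lay wholly lower and 1158 wholly higher after RT. In Tert- cells the numbers were 1467 and 1544. Averaged over both populations, the log2 fold change was -1.06 ± 0.22 (SE), a 2.08-fold lower level, with an edgeR adjusted p of 0.00746. Acat2 averaged 31.3 ± 11.1 CPM in RT libraries and 43.7 ± 7.67 CPM in no RT libraries (SD, n = 8 and 6) and did not pass (adjusted p 0.116). Of the Acat2 transcript sequence, 39.1% of 50-base stretches also occur in other genes, mainly Acat3 and Tcp1, and 11.6% of those of Hmgcs1 do, so reads could be split between them.

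Mevalonate is phosphorylated by Mvk and Pmvk, decarboxylated by Mvd, isomerised by Idi1 and condensed by Fdps. Idi1 was at 4.79, 6.30, 11.1 and 8.81 CPM in Tert+ RT libraries, against 13.3, 13.0 and 20.5 CPM in Tert+ no RT libraries. Its level was 2.54, 6.23, 7.80 and 3.45 CPM in Tert- RT libraries, against 11.1, 17.2 and 17.3 CPM in Tert- no RT libraries. None of the 8 RT libraries reached the lowest no RT library, although the nearest pair rounds to the same 11.1 CPM. The averaged log2 fold change was -1.31 ± 0.31 (SE) with an edgeR adjusted p of 0.0132, and 25.3% of its 50-base stretches occur in other genes. Mvk averaged 5.38 ± 3.41 CPM in RT libraries and 12.1 ± 4.13 CPM in no RT libraries and missed the threshold (log2 fold change -1.14 ± 0.42 SE, edgeR adjusted p 0.0832), while DESeq2 gave 0.0455 and limma voom 0.0479. Mvd also did not pass (log2 fold change -0.56, edgeR adjusted p 0.149). Pmvk and Fdps lay near 0, at -0.05 and 0.19, with edgeR adjusted p of 0.900 and 0.836; Fdps is low, with at most 10.2 CPM in any library.

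Squalene is made by Fdft1 and given its epoxide oxygen by Sqle, a rate-limiting enzyme of the route; Lss then closes the rings. Sqle was at 21.4, 8.24, 7.23 and 22.3 CPM in Tert+ RT libraries, against 37.9, 68.7 and 64.4 CPM in Tert+ no RT libraries. The Tert- RT libraries stood at 18.3, 9.86, 19.8 and 20.1 CPM, against 47.9, 64.0 and 74.0 CPM in Tert- no RT libraries. All 8 RT libraries lay below all 6 no RT libraries, with a gap between 22.3 and 37.9 CPM. Averaged over both populations, the log2 fold change was -1.90 ± 0.28 (SE), a 3.72-fold lower level, and its edgeR adjusted p of 0.00106 was the smallest of the 32 genes. Fdft1 was at 21.4, 13.6, 25.8 and 18.2 CPM in Tert+ RT libraries, against 37.5, 53.2 and 47.4 CPM in Tert+ no RT libraries. It was at 24.3, 30.0, 19.2 and 18.3 CPM in Tert- RT libraries, against 44.3, 44.9 and 46.0 CPM in Tert- no RT libraries. Here too the 8 RT libraries and the 6 no RT libraries did not overlap. Its averaged log2 fold change was -1.10 ± 0.17 (SE) with an edgeR adjusted p of 0.00166. Fdft1 overlaps Ctsb, a cathepsin gene on the other strand, and 26.5% of its 50-base stretches occur elsewhere. Ctsb itself was at 367 ± 60.6 CPM in RT libraries and 616 ± 126 CPM in no RT libraries (log2 fold change -0.74, edgeR adjusted p 0.00278). Whether reads were counted by strand is not given in the sources used here, and the part of Ctsb in the Fdft1 value was not tested. Lss averaged 15.0 ± 8.48 CPM in RT libraries and 25.0 ± 4.29 CPM in no RT libraries and did not pass (edgeR adjusted p 0.121), though limma voom gave 0.0483.

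The later enzymes remove methyl groups and move double bonds. Cyp51, the lanosterol 14-alpha-demethylase, was at 42.9, 15.5, 38.3 and 66.4 CPM in Tert+ RT libraries, against 81.0, 101 and 128 CPM in Tert+ no RT libraries. In Tert- RT libraries it was at 36.6, 36.2, 36.9 and 34.3 CPM, against 76.5, 104 and 87.0 CPM in Tert- no RT libraries. The RT and no RT libraries did not overlap, and the 4 Tert- RT libraries lay close together. The averaged log2 fold change was -1.32 ± 0.23 (SE) with an edgeR adjusted p of 0.00226. Akap9, which overlaps Cyp51 on the other strand, changed the opposite way, with 119 ± 17.3 CPM in RT libraries and 79.2 ± 17.4 CPM in no RT libraries (log2 fold change 0.60, edgeR adjusted p 0.00672).

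Msmo1, the methylsterol monooxygenase of the next demethylation, was at 31.5, 22.6, 27.4 and 55.6 CPM in Tert+ RT libraries, against 32.4, 84.4 and 60.0 CPM in Tert+ no RT libraries. Tert- RT libraries had 23.9, 20.8, 26.3 and 26.3 CPM, against 56.8, 89.2 and 51.9 CPM in Tert- no RT libraries. The Tert- groups did not overlap, while in Tert+ cells RT replicate 4 lay above no RT replicate 1. Averaged over both populations, the log2 fold change was -1.11 ± 0.23 (SE) with an edgeR adjusted p of 0.00722. Nsdhl, which acts with Msmo1, was at 14.6, 9.05, 15.0 and 24.0 CPM in Tert+ RT libraries, against 27.7, 28.3 and 20.9 CPM in Tert+ no RT libraries. Its level was 6.17, 13.6, 11.2 and 21.4 CPM in Tert- RT libraries, against 29.7, 34.2 and 33.6 CPM in Tert- no RT libraries. Of the 8 RT libraries, Tert+ RT replicate 4 and Tert- RT replicate 4 lay above the lowest no RT library. The averaged log2 fold change of Nsdhl was -1.00 ± 0.26 (SE) with an edgeR adjusted p of 0.0208, and this call was lost on leaving out Tert+ no RT replicate 2 (0.0572), or Tert- no RT replicates 2 (0.0508) or 3 (0.0515) singly.

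Ebp, a sterol isomerase and per length the highest of the 18 sterol enzymes (a median of 24.3 CPM per kb), was at 58.0, 41.1, 65.2 and 45.1 CPM in Tert+ RT libraries, against 60.5, 70.9 and 75.7 CPM in Tert+ no RT libraries. The Tert- RT libraries stood at 49.1, 46.2, 48.5 and 36.7 CPM, against 54.4, 59.7 and 77.9 CPM in Tert- no RT libraries. The Tert- groups were apart and the Tert+ groups overlapped through RT replicate 3. The averaged log2 fold change was -0.45 ± 0.14 (SE) with an edgeR adjusted p of 0.0451. Dhcr7, which carries out a last reduction to cholesterol, was at 26.1, 33.0, 45.2 and 42.1 CPM in Tert+ RT libraries, against 33.0, 60.9 and 67.0 CPM in Tert+ no RT libraries. It was at 29.2, 26.7, 26.8 and 36.6 CPM in Tert- RT libraries, against 36.5, 53.5 and 49.4 CPM in Tert- no RT libraries. RT libraries were mostly the lower ones, with overlap in both populations. Over both populations, its log2 fold change was -0.60 ± 0.19 (SE) with an edgeR adjusted p of 0.0454. These calls are close to the threshold: Ebp kept its call in 3 and Dhcr7 in 4 of the 14 fits that left out 1 library, with adjusted p up to 0.145 for Ebp (Tert- no RT replicate 3 left out) and 0.135 for Dhcr7 (Tert+ no RT replicate 3 left out). Both held when replicate 3 of Tert+ RT, or replicate 1 of either no RT group, was left out, and Dhcr7 also held when replicate 4 of Tert+ RT was. The rest of the later enzymes did not pass: Tm7sf2, a sterol reductase, had -0.24, Hsd17b7, a ketosteroid reductase, -0.75, and Sc5d, a desaturase, -0.03 (edgeR adjusted p 0.789, 0.102 and 0.946).

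**Figure D2:**
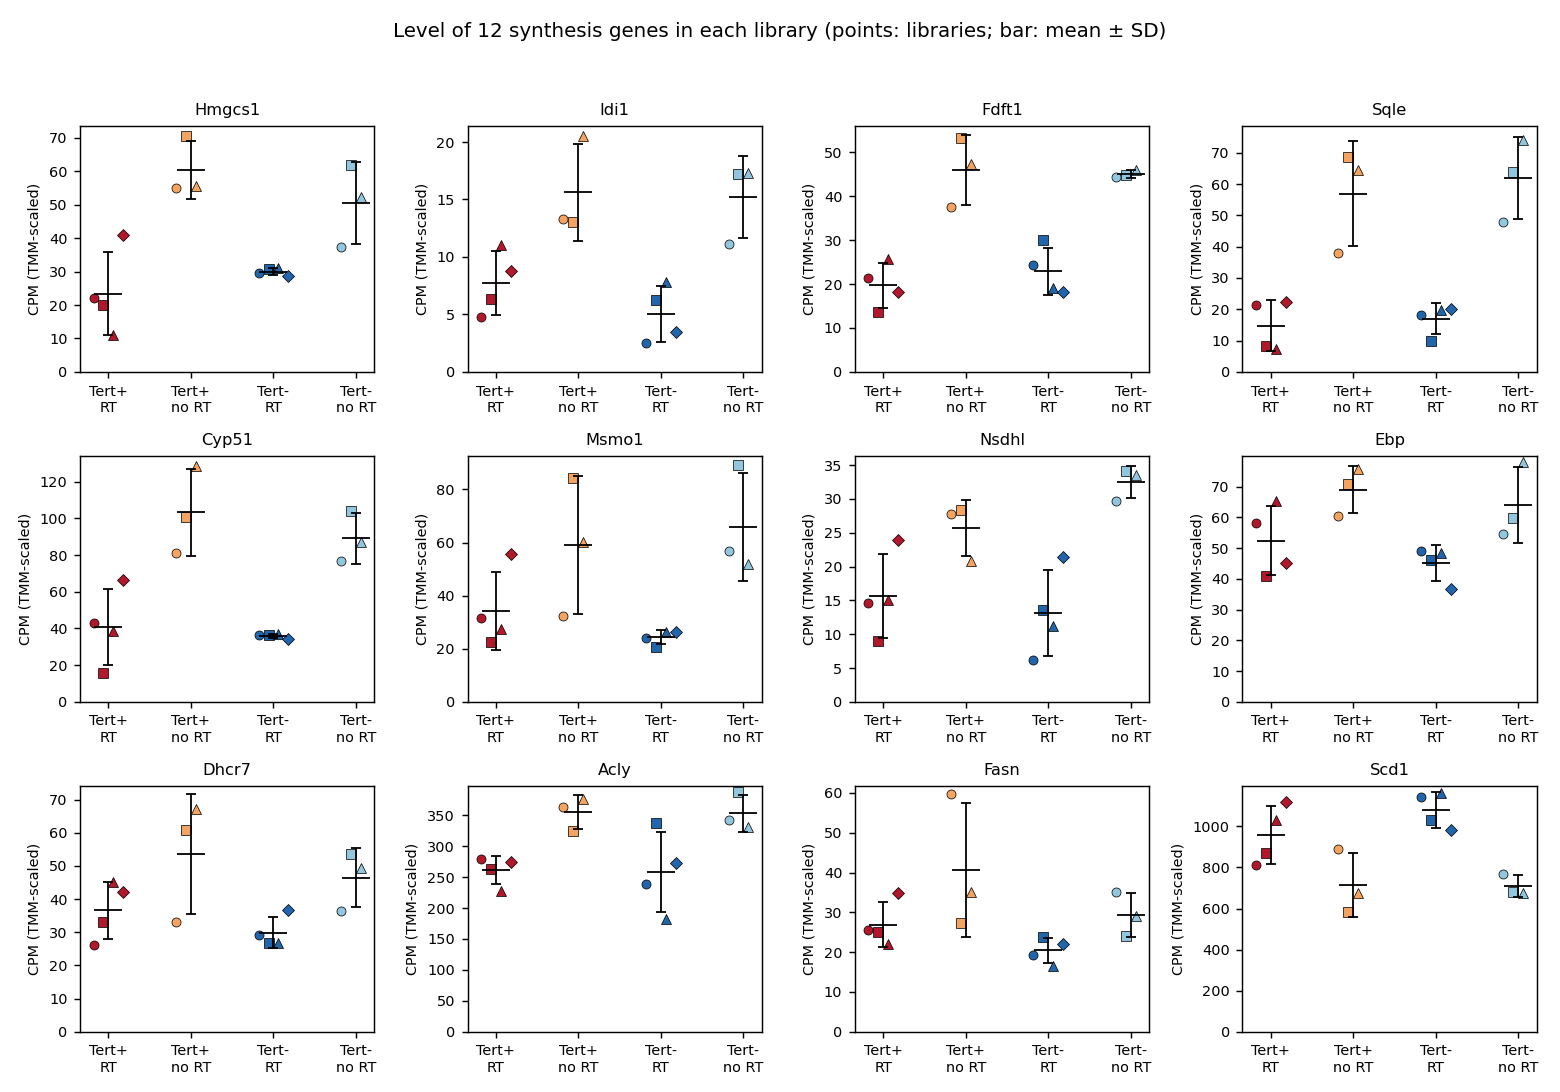
CPM in every library for the 9 sterol enzymes called lower after RT averaged over both populations, and for Acly, Fasn and Scd1. Points are libraries (circle, square, triangle and diamond for replicates 1 to 4), bars are the mean ± SD of each group, and RT stands left of no RT within each population. Sqle, Fdft1, Cyp51 and Idi1 show no overlap between RT and no RT libraries, and Scd1 lies higher after RT.

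Over all 14 libraries together, 4 of the 32 genes (Idi1, Fdft1, Sqle and Cyp51) had every RT library below every no RT library, against 1.33% of all genes tested. None of the 32 had every RT library above, against 1.82%. Within Tert+ cells alone, 9 of the 32 genes lay wholly lower after RT and 0 wholly higher, against 1313 and 1158 of 15915. Within Tert- cells alone, 12 lay wholly lower and 1 wholly higher, against 1467 and 1544. The calls of Sqle, Fdft1, Hmgcs1, Cyp51, Idi1, Msmo1 and Scd1 in the averaged comparison were kept in all 14 fits that left out 1 library.

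Acly, the ATP citrate lyase that makes cytosolic acetyl-CoA, was the most abundant gene of the list per length after Scd1 (a median of 57.2 CPM per kb). It was at 279, 263, 228 and 274 CPM in Tert+ RT libraries, against 364, 325 and 377 CPM in Tert+ no RT libraries. In Tert- RT libraries it was at 239, 337, 183 and 272 CPM, against 342, 387 and 331 CPM in Tert- no RT libraries. The Tert+ groups were apart, and in Tert- cells only RT replicate 2 reached into the no RT range. The averaged log2 fold change was -0.45 ± 0.12 (SE) with an edgeR adjusted p of 0.0211, which became 0.0548 on leaving out replicate 3 of Tert+ no RT and 0.0575 on leaving out replicate 2 of Tert- no RT. Acss2, which makes acetyl-CoA from acetate, averaged 13.6 ± 5.61 CPM in RT libraries and 19.7 ± 6.98 CPM in no RT libraries and did not pass (log2 fold change -0.55, edgeR adjusted p 0.261).

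Of the fatty acid enzymes, 1 of 7 passed. Scd1, the stearoyl-CoA desaturase that makes monounsaturated fatty acids, was per length the most abundant of the 32 genes (a median of 181.7 CPM per kb). It was at 811, 870.0, 1029 and 1118 CPM in Tert+ RT libraries, against 888, 583 and 675 CPM in Tert+ no RT libraries. Tert- RT libraries had 1143, 1029, 1162 and 983 CPM, against 769, 679 and 677 CPM in Tert- no RT libraries. The Tert- groups did not overlap, and in Tert+ cells no RT replicate 1 lay within the RT range. That library also differed from Tert+ no RT replicates 2 and 3 in marker sums. Its acinar genes summed to 9802 CPM, against 2626 and 3208 CPM, and its epithelial genes to 576 CPM, against 178 and 145 CPM. The part of this in the Scd1 values was not tested. Over both populations, its log2 fold change was 0.51 ± 0.11 (SE), 1.43-fold higher, with an edgeR adjusted p of 0.00717. The related Scd2 did not pass (edgeR adjusted p 0.928): it was at 43.7, 86.5, 56.1 and 84.4 CPM in Tert+ RT libraries, against 93.9, 52.2 and 57.9 CPM in Tert+ no RT libraries. Its level was 52.2, 68.4, 46.6 and 68.5 CPM in Tert- RT libraries, against 47.0, 39.8 and 79.5 CPM in Tert- no RT libraries, so that its groups overlapped throughout. Of the 50-base stretches of Scd1, 4.56% occur in other genes, mainly Scd2, Scd3 and Scd4.

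Fasn, the fatty acid synthase, was at 25.5, 25.1, 22.1 and 35.0 CPM in Tert+ RT libraries, against 59.6, 27.3 and 35.0 CPM in Tert+ no RT libraries. The Tert- RT libraries stood at 19.4, 23.7, 16.5 and 22.2 CPM, against 35.1, 23.9 and 29.0 CPM in Tert- no RT libraries. The Tert- groups were narrowly apart and the Tert+ groups overlapped. Its averaged log2 fold change was -0.55 ± 0.20 (SE), and its edgeR adjusted p of 0.0733 missed the threshold. Acaca, the acetyl-CoA carboxylase, had the opposite sign, with 17.0 ± 2.50 CPM in RT libraries and 11.6 ± 4.26 CPM in no RT libraries (log2 fold change 0.56 ± 0.25 SE, edgeR adjusted p 0.149). Without Tert- no RT replicate 1 the value for Acaca was 0.88, with an edgeR adjusted p of 0.0140, and 30.4% of its 50-base stretches occur in other genes, mainly Gm5182. The elongase Elovl6 and the desaturases Fads1 and Fads2 were low, and their averaged log2 fold changes of -0.29, -0.98 and 0.42 had standard errors of 0.73, 0.83 and 0.62. None of these 3 passed. Without Tert+ RT replicates 3 and 4 the value for Fads1 was -4.52 with an edgeR adjusted p of 0.0234; its count is 0 in both Tert+ RT libraries that remain, so this fitted fold change depends on the prior count.

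Summed over its enzymes, the sterol route reached 379 ± 45.1 CPM in RT libraries, from 298 to 453, and 668 ± 75.3 CPM in no RT libraries, from 572 to 752 (SD, n = 8 and 6). The sums did not overlap. The fatty acid sum was 1138 ± 123 CPM in RT libraries and 843 ± 131 CPM in no RT libraries, and most of it was Scd1. Without Scd1 it was 120 ± 22.3 CPM in RT libraries and 131 ± 31.3 CPM in no RT libraries, with wide overlap. The CPM of Scd1 was between 37.8 and 142 times that of Sqle in RT libraries, and between 8.49 and 23.4 times in no RT libraries. These sums describe the libraries and were not tested, since the genes were chosen with earlier results known.

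**Figure D3:**
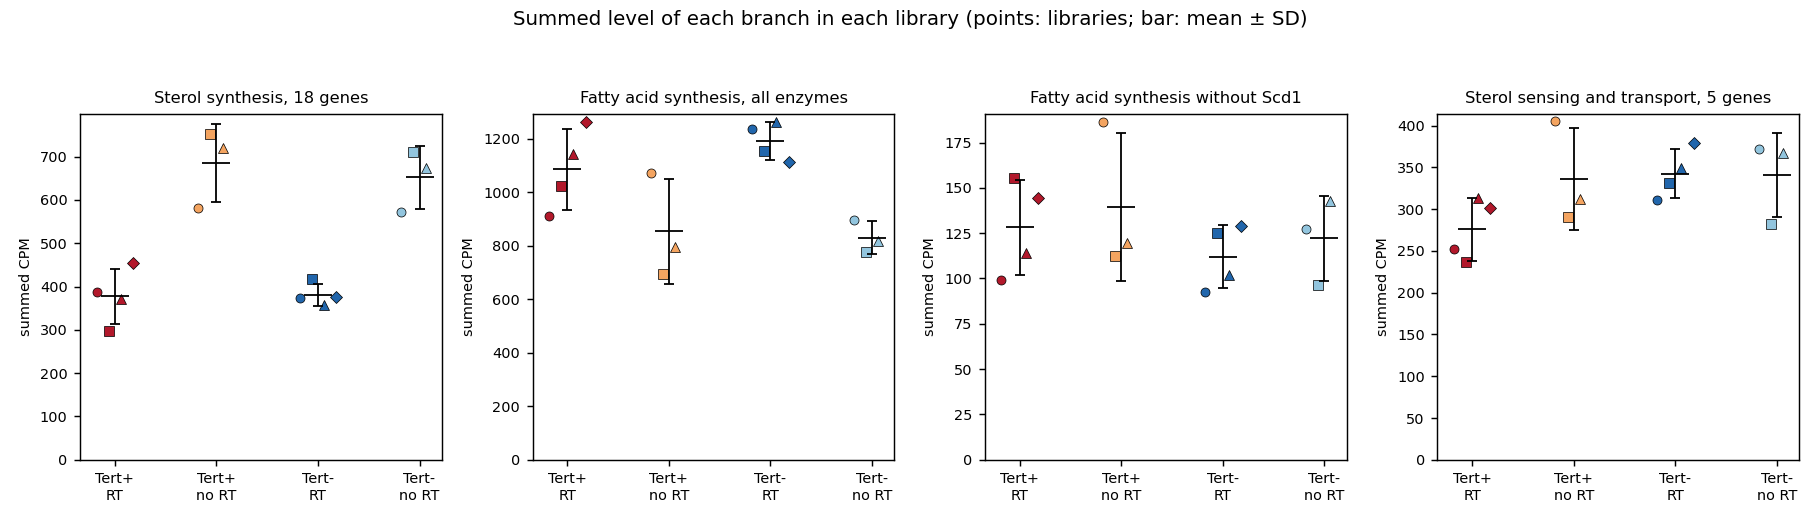
Summed CPM per library of the 18 sterol enzymes, the 7 fatty acid enzymes, the same without Scd1, and the 5 sensing and transport genes. Points are libraries (circle, square, triangle and diamond for replicates 1 to 4) and bars are the mean ± SD. The sterol sums of RT libraries (298 to 453) lie below those of no RT libraries (572 to 752), while the fatty acid sums without Scd1 overlap.

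None of the 5 genes of sterol sensing and transport passed. In the averaged comparison 7.00% of all genes tested fell and 6.36% rose, so in so short a list this is near the background. Srebf2 was at 113, 92.6, 114 and 126 CPM in Tert+ RT libraries, against 140.1, 95.8 and 122 CPM in Tert+ no RT libraries. It was at 129, 169, 187 and 175 CPM in Tert- RT libraries, against 169.8, 109 and 158 CPM in Tert- no RT libraries. The RT and no RT groups overlapped in both populations, and the averaged log2 fold change was 0.05 ± 0.13 (SE) with an edgeR adjusted p of 0.866. Srebf1 was at 66.0, 71.3, 105 and 83.0 CPM in Tert+ RT libraries, against 145, 109.7 and 96.4 CPM in Tert+ no RT libraries. In Tert- RT libraries it was at 82.9, 74.2, 66.1 and 106 CPM, against 89.5, 87.4 and 116 CPM in Tert- no RT libraries. Its groups overlapped in both populations, and the averaged log2 fold change of -0.38 ± 0.15 (SE) had an edgeR adjusted p of 0.0935. Scap averaged 34.0 ± 6.76 CPM in RT libraries and 40.2 ± 5.24 CPM in no RT libraries. Insig1, itself a sterol-controlled gene, averaged 37.3 ± 7.65 CPM in RT libraries and 43.7 ± 8.09 CPM in no RT libraries. Stard4, a carrier of cholesterol within cells, averaged 17.8 ± 5.80 CPM in RT libraries and 15.1 ± 5.22 CPM in no RT libraries. The median log2 fold change of the 5 was -0.23.

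Within Tert+ cells alone, 4 of the 32 genes fell after RT and 0 rose, against 0.873% and 1.11% of all genes tested. They were Sqle (log2 fold change -1.93 ± 0.39 SE, edgeR adjusted p 0.0256), Fdft1 (-1.22 ± 0.25, 0.0256), Hmgcs1 (-1.36 ± 0.32, 0.0407) and Cyp51 (-1.33 ± 0.32, 0.0432), all of the sterol route. Leaving out replicate 2 or replicate 3 of Tert+ no RT left 0 called, as did a fit of only the Tert+ libraries. Leaving out Tert+ RT replicate 2 or 3 left 1. Leaving out Tert+ RT replicate 1, any 1 of the Tert- RT libraries, or replicate 2 or 3 of Tert- no RT left 2.

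Within Tert- cells alone, 2 of the 32 fell and 0 rose, against 0.804% and 0.817% of all genes tested. They were Sqle (log2 fold change -1.86 ± 0.39 SE, edgeR adjusted p 0.0319) and Msmo1 (-1.44 ± 0.33, 0.0428). Fdft1 (-0.98, 0.0556), Cyp51 (-1.31, 0.0520) and, upward, Scd1 (0.61, 0.0556) came close. DESeq2 called 7 of the 32 in this comparison and limma voom 4. The shares of all genes that these 2 tools called are not given here, so their counts cannot be set against a background. Leaving out any 1 of the Tert- RT libraries, or replicate 2 or 3 of Tert- no RT, left 0 called. Leaving out replicate 1 of Tert- no RT gave 6. Leaving out Tert+ RT replicate 2 or Tert+ no RT replicate 1 gave 4, and leaving out replicate 1 or 3 of Tert+ RT or replicate 2 or 3 of Tert+ no RT gave 1.

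The RT effect was not shown to differ between the populations. The difference of the log2 fold changes, Tert+ minus Tert-, passed for 0 of the 32 genes (edgeR) and for 0.00% of all genes tested; 0 of the 32 and 578 of 15915 had an unadjusted p under 0.05, and DESeq2 and limma voom also called 0 of the 32. For Sqle the difference was -0.07 ± 0.55 (SE), for Hmgcs1 -0.61 ± 0.45, for Msmo1 0.66 ± 0.47 and for Scd1 -0.19 ± 0.21. Standard errors of this size leave room for sizeable differences either way.

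Tert+ and Tert- cells did not differ in any of the 32 genes past the threshold. After RT, 0 of the 32 passed in edgeR, DESeq2 and limma voom, against 0.0126% of all genes tested in edgeR. Against 1176 of the 15915 genes tested, 2 of the 32 had an unadjusted edgeR p under 0.05, which is not above the background. These were Srebf2, with a log2 fold change, Tert+ over Tert-, of -0.57 ± 0.17 (SE, edgeR adjusted p 0.421), and Acat2, with -0.61 ± 0.27 (0.654). For Srebf2 every Tert+ RT library lay below every Tert- RT library. Of the 15915 genes tested, 391 did so, and 386 lay wholly higher. Without RT, 0 of the 32 passed in the same 3 tools, against 0.0377% of all genes tested in edgeR. Of the 32, 1 had an unadjusted edgeR p under 0.05, Fads1, against 716 of the 15915 genes tested. This count too is not above the background. Fads1, the delta-5 fatty acid desaturase, was at 0.366, 4.55 and 0.152 CPM in Tert+ no RT libraries, against 19.7, 22.2 and 18.3 CPM in Tert- no RT libraries. After RT it was at 0, 0, 5.05 and 1.63 CPM in Tert+ libraries, against 4.35, 9.47, 3.31 and 4.31 CPM in Tert- libraries. The no RT groups were far apart, yet the log2 fold change of -3.53 ± 1.36 (SE) did not pass over all genes (edgeR unadjusted p 0.0204). Without RT, 2 of the 32 lay wholly lower in Tert+ libraries and 2 wholly higher, against 768 and 643 of 15915 genes tested. The related Fads2 went the opposite way, with 8.60 to 14.2 CPM in Tert+ and 0.350 to 7.66 CPM in Tert- no RT libraries. Its log2 fold change was 1.43 ± 0.95 (SE). Macrophage markers, as a sum, were also lower in Tert+ libraries, though of the 6 only C1qc passed without RT and 0 passed after RT. Their 6 genes summed to between 117 and 280.2 CPM in Tert+ no RT libraries, against 1520 to 1860 CPM in Tert- no RT libraries. After RT they summed to between 94.2 and 191 CPM in Tert+ libraries, against 250.4 to 1158 CPM in Tert- libraries. These sums did not overlap after RT, whereas the Fads1 values did. The part of macrophages in the Fads1 values was not tested.

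Other genes of lipid metabolism were read beside the 32. Of 56 genes in 6 further lists, all of which could be tested, 8 fell and 3 rose after RT averaged over both populations, and 45 did not pass, against 7.00% and 6.36% of all genes tested. The number that rose is near that background, and the lists are too short for their counts to be set against it. Genes of sterol export and storage went both ways. Abca1 and Abcg1, transporters that export cholesterol and are targets of the liver X receptors, rose, with log2 fold changes of 1.03 and 0.81 (edgeR adjusted p 0.0106 and 0.00444). Abca1 was at 176 ± 31.3 CPM in RT libraries and 85.9 ± 41.1 CPM in no RT libraries. Lipa, the lysosomal lipase that frees cholesterol from its esters, fell (-0.61, edgeR adjusted p 0.00605), and the other 6 of the 9 did not pass. Of 10 genes of citrate supply and elongation, Tecr and Elovl1, which act in elongation, fell (-0.75 and -0.48, edgeR adjusted p 0.00192 and 0.0251). Of 10 genes of mitochondrial fatty acid oxidation, Hadha, Cpt2 and Acadm fell (-0.37, -0.98 and -0.68, edgeR adjusted p 0.0109, 0.0160 and 0.0176). Of 11 genes of fatty acid activation and glycerolipid synthesis, Dgat1, which makes triglyceride, rose (1.00, edgeR adjusted p 0.0230) and Agpat3, an acyltransferase, fell (-0.52, edgeR adjusted p 0.0309). None of 8 genes of the isoprenoid branches passed. Within 1 population, Abcg1 rose in Tert+ cells, and Tecr and Lipa fell in Tert- cells.

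Markers of proliferation and of germinal centre B cells were lower after RT, as was the sterol sum. Of all genes tested, 7.00% fell and 6.36% rose in the averaged comparison, and the marker lists are short. Of 8 proliferation genes, 6 fell after RT averaged over both populations (Mcm2, Mcm5, Mcm6, Top2a, Mki67 and Ccna2), while Pcna and Cdk1 did not pass. The sum of the 8 ran from 259 to 329 CPM in RT libraries, against 421 to 652 CPM in no RT libraries. Its largest parts were Pcna, Mcm2, Mcm6 and Mcm5, with medians over all libraries of 112, 84.0, 65.1 and 64.5 CPM. The medians of Top2a, Cdk1, Mki67 and Ccna2 were 9.66, 1.81, 1.57 and 1.00 CPM. Of 7 germinal centre B cell genes, 6 fell, among them Mef2b, S1pr2, Rgs13, Gcsam and Mybl1, and their sum ran from 13.3 to 35.9 CPM in RT libraries, against 99.6 to 462 CPM in no RT libraries. Without RT this sum was 229 to 462 CPM in Tert+ libraries and 99.6 to 168 CPM in Tert- libraries, while the sterol sums of the 2 populations overlapped, with 582 to 752 CPM in Tert+ and 572 to 711 CPM in Tert-. Mature B cell genes showed no such shift with RT: 0 of 6 passed. Their sum ran from 7538 to 9622 CPM in RT libraries, against 6558 to 10814 CPM in no RT libraries. Within the no RT groups, libraries did not keep the same order in every list. In Tert- no RT replicates 1 to 3, sterol sums were 572, 711 and 673 CPM. Germinal centre sums were 168, 99.6 and 128 CPM there, and mature B cell sums 6558, 10814 and 9218 CPM. In Tert+ no RT replicates 1 to 3, sterol sums were 582, 752 and 721 CPM. Germinal centre sums were 229, 416 and 462 CPM there, and mature B cell sums 7310, 9899 and 10814 CPM. Of 7 epithelial genes 0 passed, with sums of 98.8 to 471 CPM in RT libraries and 145 to 576 CPM in no RT libraries. Members of other lists also passed: of 6 macrophage genes Csf1r and Cd68 fell, of 6 plasma cell genes Xbp1 and Jchain fell and Irf4 rose, and of 7 acinar genes Lpo fell. The macrophage sums ran from 94.2 to 1158 CPM in RT libraries and from 117 to 1860 CPM in no RT libraries, with overlap. The plasma cell sums, 552 to 716 CPM in RT libraries and 576 to 706 CPM in no RT libraries, and the acinar sums, 1092 to 4898 CPM in RT libraries and 980 to 9802 CPM in no RT libraries, also overlapped. None of 6 tubule and 6 T cell genes passed. The part of any of these cell types in the sterol result was not tested.

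**Figure D4:**
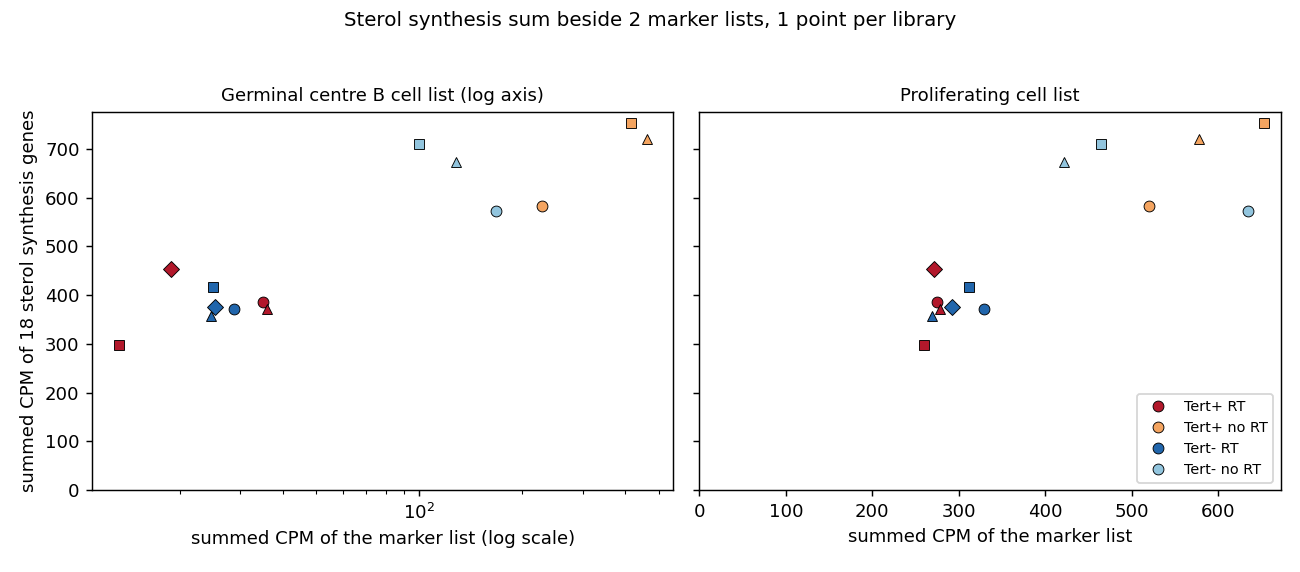
Summed CPM of the 18 sterol enzymes (vertical) against the summed CPM of 7 germinal centre B cell genes (left, log axis) and of 8 proliferation genes (right), 1 point per library, coloured by group; circle, square, triangle and diamond are replicates 1 to 4. RT libraries are low on every axis (sterol sums of 298 to 453 CPM) and no RT libraries are high on every axis, with the germinal centre sums of Tert+ no RT libraries above those of Tert- no RT libraries.

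Depth also differed with RT. In a fit of only the 9 libraries with at least as many counts as the shallowest no RT library, an alternative added after seeing the data, 0 of the 32 genes passed; it kept 2 Tert+ RT libraries and 1 Tert- RT library. The log2 fold changes of the 11 called genes kept their direction there, with Sqle at -1.50 (edgeR adjusted p 0.0697), Fdft1 at -1.26 (0.0688), Cyp51 at -1.15 (0.0837), Idi1 at -1.67 (0.140) and Scd1 at 0.45 (0.297). The other called genes also missed the threshold, with Nsdhl at -0.51 (0.439), Hmgcs1 at -0.88 (0.205), Msmo1 at -0.88 (0.309), Dhcr7 at -0.50 (0.487) and Acly at -0.37 (0.265), while Ebp was at -0.61 (0.228).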

How the data were processed

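The authors deposited 1 table of read counts per gene with 1 column per library, the gene length and mm10 positions, per the file headers. Alignment with HISAT2 to mm10 is given in the submitters' processing notes; the counting program, its treatment of strand and the annotation release are not given in the sources used here. Libraries were made from 1 ng of RNA, per the labels' protocols. All 14 columns matched a sample, and 0 columns were left over.

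The tests used edgeR 4.0.16 under R 4.3.3 (filterByExpr on the 4 groups, TMM factors, robust dispersions, 1 term per group over all 14 libraries, two-sided quasi-likelihood F tests). P-values were adjusted over the 15915 genes tested by Benjamini-Hochberg, with a threshold of 0.05. All adjusted p-values in the text come from edgeR unless DESeq2 1.42.0 or limma voom 3.58.1 is named. The SE of a log2 fold change is its size divided by the square root of F. CPM per kb divides CPM by the deposited gene length. Groups of 4 or 3 libraries, with total counts from 5520412 to 15943597, limit precision; fold changes of genes under about 10 CPM are the least certain.

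Values in every library are given for genes past the threshold in any comparison, for Srebf1, Srebf2, Fasn, Scd1 and Scd2, and for the most abundant gene of each route per length; Fads1 was added after its values were seen. Of the other lists, genes past the threshold are named, apart from some that are not reported here. The 32 genes, their routes and all other lists were chosen with earlier results of these data known. Shared 50-base stretches were counted over annotated transcripts. Promoters are from RefSeq, GRCm38.p6. The test code was tested on simulated data. Alternatives changed the scaling, the filter, the tool, the libraries fitted and the replicate block.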

Additional observations from a re-analysis of the deposited data

Results flagged for a closer look

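In groups of 4 libraries, a library was singled out where its gap to the nearest other library was large relative to the range of its group by Dixon's test. Chance alone singles out about 1 in 20 groups, and 3 of 64 groups were singled out. Mvd, the mevalonate diphosphate decarboxylase, was at 17.4 CPM in Tert- RT replicate 2, above the 12.5, 12.5 and 12.8 CPM of the other 3 libraries of that group. The elongase Elovl6 was at 0 CPM in Tert+ RT replicate 3, below the 3.05, 3.23 and 3.51 CPM of the others. The desaturase Fads1 was at 9.47 CPM in Tert- RT replicate 2, above 3.31, 4.31 and 4.35 CPM. None of these 3 genes passed the threshold in any comparison.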

How the results depend on the processing

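In the averaged comparison, between 9 and 13 of the 32 genes passed (11 as reported) under another scaling, other filters, DESeq2, limma voom, the replicate block and without Tert+ RT replicates 3 and 4, and between 7 and 12 when 1 library was left out. In Tert+ cells (4 as reported) the count was 0 in a fit of only the groups compared, 2 without Tert+ RT replicates 3 and 4, and 0 to 4 when 1 library was left out. In Tert- cells (2 as reported) it was 5 with a stricter filter, 7 with DESeq2, 4 with limma voom, and 0 to 6 when 1 library was left out. Shares over all genes are not given for these alternatives, so a higher count need not mean more support for these genes. In the 9 deepest libraries, a choice made after seeing the data, all 3 counts were 0, with fewer libraries fitted. The difference of the RT effect and both comparisons of Tert+ with Tert- gave 0 of the 32 under every alternative run. The log2 ratio of the fatty acid sums, 0.43, became 0.0426 as a median over genes and 0.21 with Acly and Acss2 added; the sterol ratio of -0.82 stayed between -0.85 and -0.76.

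Same-numbered libraries were not treated as pairs in the reported tests. Correlations of their deviations from the group means lay between -0.08 and 0.12. They were over 0.1 in 2 of 3 pairs of no RT groups, both best with their own number, and in none elsewhere. In no pair of groups did every library correlate best with its own number. Low correlations cannot exclude that same-numbered Tert+ and Tert- libraries came from 1 animal. With the replicate block, 3 genes passed in Tert+ cells, 3 in Tert- cells and 10 averaged.

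Some averaged log2 fold changes near 0 changed sign, and the cause was not tested. Without Tert+ RT replicates 3 and 4, Srebf2 was -0.00674, Pmvk 0.0258 and Tm7sf2 0.00204. The same setting gained Fads1, at -4.52 (edgeR adjusted p 0.0234) in place of -0.98. With the stricter filter, Sc5d was 0.0375 and Pmvk 0.0246; with the replicate block, Sc5d was 0.0445 and Scd2 -0.0711. Fdps was -0.0842 with limma voom and -0.452 in the deepest libraries. With 1 library left out, Srebf2 ran from -0.0380 to 0.119, Scd2 from -0.0540 to 0.221, Sc5d from -0.144 to 0.0904, Pmvk from -0.141 to 0.0408, Fads1 from -1.73 to 0.399 and Fdps from -0.0381 to 0.522.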
